A study of Rattus norvegicus with 6 samples.

Results

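Blood vessel endothelium was followed through 10 genes in cultured newborn rat ovaries: Pecam1, Cdh5, Kdr, Flt1, Tek, Tie1, Emcn, Vwf, Esam and Eng. A gene was used where the platform annotation gave a probe set that symbol alone, which was so for 6 of the 10, Cdh5, Esam, Flt1, Tek, Tie1 and Emcn, with 1 probe set each among 27342 on the array. Pecam1, Kdr, Vwf and Eng were not analysed here. Transcripts were measured in 3 CTGF samples, in which ovaries were exposed to 500 ng/ml of CTGF over 24 h of organ culture, and in 3 control samples cultured over the same 24 h with no treatment. All were whole ovaries of female Sprague-Dawley pups at postnatal day 0. Littermates gave the 2 to 3 ovaries pooled from 1 well into a sample, and each of 3 culture dates gave 1 CTGF and 1 control pool. Connective tissue growth factor, CTGF, is a secreted matricellular protein of the CCN family, here the human protein. The study asks how CTGF acts on the assembly of primordial follicles, and the comparison given here is of endothelial transcripts in these ovaries.

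Endothelial cells line blood vessels. They hold together through adhesion molecules such as VE-cadherin, grow in answer to vascular endothelial growth factors (VEGF) through tyrosine kinase receptors, and are kept stable by angiopoietins acting on the Tie receptors. In the newborn ovary vessels lie mainly in the medulla, while the oocyte nests occupy the cortex, and in organ culture the vessels have no blood flow. In RNA of whole ovaries, fewer endothelial cells and less of a transcript per cell cannot be told apart.

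The values are log2 signals, 1 per probe set and array, as the authors summarized them. Array medians lay between 5.82 and 5.84. For every probe set the mean of the CTGF and the control array was the same in the 3 culture batches to within 0.005, so the differences between culture dates had been taken out before deposit. The paired arrays of a batch therefore mirror each other, and whether a difference arose in the CTGF or in the control pool cannot be told apart. Across all 27342 probe sets the groups were free of overlap exactly where the 3 within-batch differences had the same sign, in 5551 probe sets, so lack of overlap adds nothing to the sign. As a rough guide to background, 40 measured genes of other organs, such as retina, pancreas and kidney, had a median log2 signal of 4.59 and a 95th percentile of 5.79. Probe sets differ in brightness for the same amount of RNA, so levels are not compared between genes. As to the tissue label, 8 of 8 measured germ cell genes and 7 of 8 measured pregranulosa genes lay above that percentile.

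By their mean over the 6 arrays, Tek, Emcn and Esam lay above the 95th percentile of the genes of other organs. Tie1, Cdh5 and Flt1 lay below it, so the differences of these 3 cannot be read clear of background. Of the 6 endothelial genes 0 passed an adjusted p of 0.05 in limma (adjusted p = 0.994 for each), where 0% of all probe sets did. At an unadjusted p under 0.05, 0 of the 6 were called against 3.35% of all probe sets, and by the study's criteria 0 of the 6 against 0.435%. They ask that the mean signals, taken off the log scale, differ by more than 10 and by a ratio above 1.2 or below 0.83, at an unadjusted p of less than 0.05, for which that of limma was used. The median log2 fold change of the 6 genes, CTGF minus control, was -0.11 beside -0.003 for all probe sets, with 2 genes above 0 and 4 below. Without culture batch 3 this median was 0.03. The 3 pairs allow an exact two-sided permutation p of 0.25 at the least for any single gene.

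**Figure D1:**
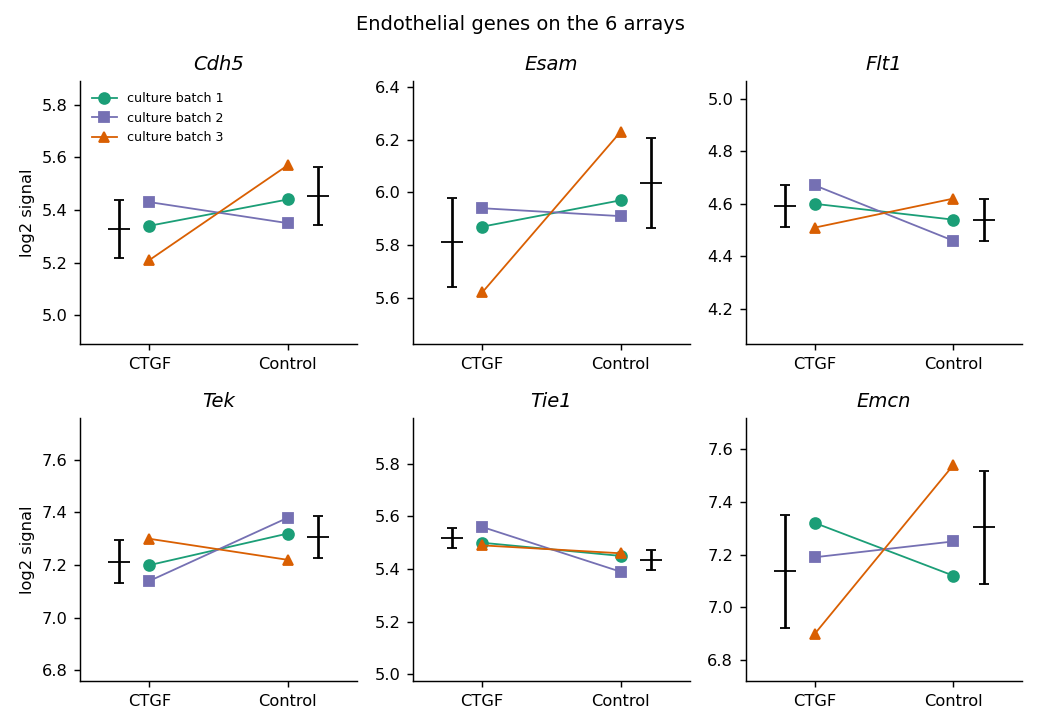
Log2 signal (vertical axis, a span of 1 log2 unit in each panel) of 6 endothelial genes on the CTGF and control arrays, joined within a culture batch (batch 1 circles, batch 2 squares, batch 3 triangles), and the mean and SD of 3 arrays in black. In Emcn, Esam and Cdh5 the lines of batch 3 are the steepest, and in Tie1 alone all 3 CTGF points lie above the control points.

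The junction molecules were led by Esam and Cdh5. Esam, the endothelial cell-selective adhesion molecule of tight junctions, also carried by platelets, had log2 signals of 5.87, 5.94 and 5.62 on the CTGF arrays of culture batches 1, 2 and 3, against 5.97, 5.91 and 6.23 on the control arrays. The groups overlapped, and the CTGF array of batch 3 was the lowest of the 6 and its control partner the highest. That CTGF signal, 5.62, lay below the 95th percentile of the genes of other organs. The mean signal was 56.4 ± 6.38 with CTGF and 66.0 ± 7.99 in control ovaries (SD, n = 3 each), a ratio of 0.854. Its log2 fold change was -0.23, with a limma standard error of 0.13, a 95% interval from -0.53 to 0.08 and an unadjusted p of 0.123 (adjusted p = 0.994). Without batch 3 it was -0.035.

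Cdh5, which encodes VE-cadherin, the adhesion molecule of endothelial adherens junctions, had log2 signals of 5.34, 5.43 and 5.21 with CTGF, against 5.44, 5.35 and 5.57 in control ovaries. Again the 2 arrays of batch 3 were the lowest and the highest, and in batch 2 the CTGF array was the higher one. The log2 fold change was -0.13 (limma standard error 0.10, adjusted p = 0.994), with -0.10, 0.08 and -0.36 in the 3 batches, and without batch 3 it was -0.01. The signals of Cdh5 lay below the 95th percentile of the genes of other organs on each of the 6 arrays.

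Flt1 is VEGF receptor 1, which binds VEGF-A, VEGF-B and placental growth factor and in its soluble form takes VEGF-A away from other receptors. Its log2 signals were 4.60, 4.67 and 4.51 with CTGF and 4.54, 4.46 and 4.62 in control ovaries, close to the median of 4.59 of the genes of other organs. The log2 fold change was 0.05 (limma standard error 0.08, 95% interval from -0.14 to 0.25), and without culture batch 2 it was -0.025. No direction can be read at this level.

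Tek, also called Tie2, is the receptor of the angiopoietins. It had log2 signals of 7.20, 7.14 and 7.30 on the CTGF arrays, against 7.32, 7.38 and 7.22 on the control arrays. CTGF lay below control in batches 1 and 2, by differences of -0.12 and -0.24, and above it in batch 3, by 0.08, so Tek ran opposite to Emcn, Esam and Cdh5 in the batch where these differed most. Its log2 fold change was -0.09 (limma standard error 0.08, unadjusted p = 0.295, adjusted p = 0.994), with -0.02 without batch 2 and -0.18 without batch 3.

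Tie1, the partner of Tek at the cell surface, had log2 signals of 5.50, 5.56 and 5.49 with CTGF and 5.45, 5.39 and 5.46 in control ovaries. It was the one gene of the 6 with the same direction in all 3 batches, where 9.41% of all probe sets were higher and 10.9% lower with CTGF in all 3, and 0 of the 6 were lower in all 3. The within-batch differences were 0.05, 0.17 and 0.03. The ratio of mean signals was 1.06, and the log2 fold change 0.08 had a limma standard error of 0.07 (unadjusted p = 0.258, adjusted p = 0.994). Without batch 2 the log2 fold change was 0.04. Each of its 6 signals was within the range of the genes of other organs.

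Emcn encodes endomucin, a sialomucin on the surface of capillary and venous endothelium. It had log2 signals of 7.32, 7.19 and 6.90 on the CTGF arrays, against 7.12, 7.25 and 7.54 on the control arrays. CTGF was the higher array in batch 1, nearly level in batch 2 and the lower one in batch 3, at differences of 0.20, -0.06 and -0.64. The mean signal was 142 ± 20.5 with CTGF and 159 ± 24.3 in control ovaries (SD, n = 3 each). The log2 fold change was -0.17, with a limma standard error of 0.15 and a 95% interval from -0.54 to 0.21 (adjusted p = 0.994), and without batch 3 it was 0.07. The SD of its 3 differences, 0.43, was equalled or exceeded by 1.72% of all probe sets, whose median was 0.12, while the SD of Tie1 was 0.08.

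**Figure D2:**
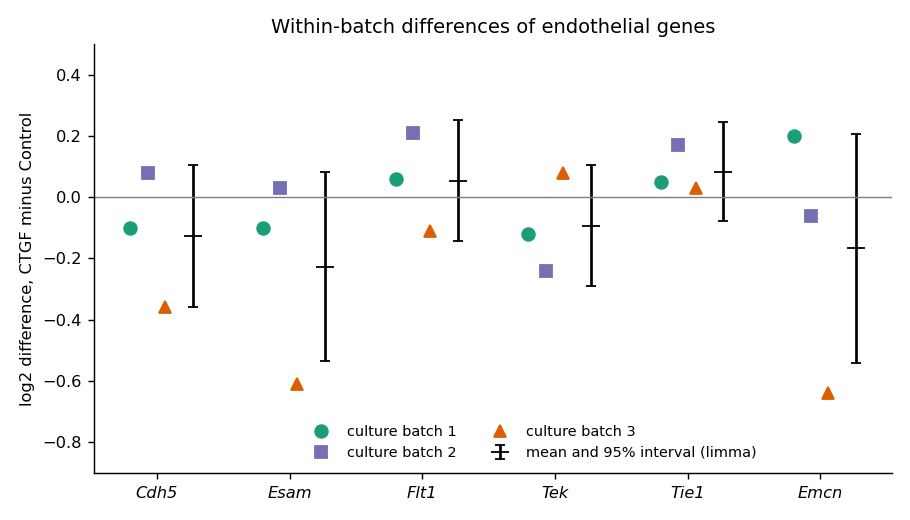
Log2 difference, CTGF minus control (vertical axis), of 6 endothelial genes with a circle for culture batch 1, a square for batch 2 and a triangle for batch 3, and the mean and 95% interval of limma in black. Every interval spans 0, and Emcn and Esam lie at -0.64 and -0.61 in batch 3.

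For Emcn, which had the lowest difference of a single batch, and Tie1, which had the steadiest ones, the promoter is shown, the region from 250 bases before to 50 bases after the gene start (RefSeq, GRCr8). Entries for 3 of the 6 genes, Emcn, Tie1 and Flt1, were matched by symbol. Emcn lies at chr2:228564289-228564588 on the plus strand and Tie1 at chr5:137304932-137305231 on the minus strand. Capitals mark GGAA on either strand, the core that transcription factors of the ETS family such as Erg and Fli1 recognize.
Emcn: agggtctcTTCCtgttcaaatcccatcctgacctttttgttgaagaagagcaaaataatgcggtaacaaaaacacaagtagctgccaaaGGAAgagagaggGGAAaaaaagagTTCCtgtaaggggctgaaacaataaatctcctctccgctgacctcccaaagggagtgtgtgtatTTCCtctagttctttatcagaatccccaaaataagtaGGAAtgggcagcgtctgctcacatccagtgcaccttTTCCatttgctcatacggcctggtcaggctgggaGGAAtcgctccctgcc
Tie1: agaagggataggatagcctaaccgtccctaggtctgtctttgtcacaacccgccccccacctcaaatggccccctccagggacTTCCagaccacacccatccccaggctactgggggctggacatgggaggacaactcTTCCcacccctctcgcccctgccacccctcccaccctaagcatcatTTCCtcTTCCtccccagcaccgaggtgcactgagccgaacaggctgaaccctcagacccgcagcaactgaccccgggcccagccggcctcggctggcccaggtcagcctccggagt
The core occurred 8 times in the Emcn window, 4 times in that of Tie1 and 3 times in that of Flt1. It is short, and 95.8% of 33469 rat promoter windows of the same 300 bases held it at least once, with a median of 3 matches. Of these windows 3.9% held 8 or more, 46.8% held 4 or more and 67.0% held 3 or more. Base composition also differed, with 47.0% G and C in the Emcn window, 64.3% in that of Tie1 and 72.7% in that of Flt1. The longer form CAGGAA, which contains the core, occurred 2 times in the Emcn window and 0 times in the windows of Tie1 and Flt1, and 29.1% of all windows held it. These matches describe the sequence and were not tied to any value of the arrays.

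Read batch by batch, the endothelial genes had different differences on different culture dates. In batch 1 they lay between -0.12 and 0.20, with 3 genes above 0 and 3 below, and in batch 2 between -0.24 and 0.21, with 4 above and 2 below. In batch 3 they lay between -0.64 and 0.08, with 2 above and 4 below. A ratio of CTGF over control under 0.83 was reached by 3 of the 6 genes in batch 3, where 6.04% of all probe sets reached it, and by 0 in batch 1 (4.89% of all) and 0 in batch 2 (5.11%). A ratio over 1.2 was reached by 0 of the 6 in any batch, against 4.32%, 3.55% and 5.49% of all probe sets in batches 1, 2 and 3. The 3 genes were Emcn at a ratio of 0.642, Esam at 0.655 and Cdh5 at 0.779. Of all probe sets, 0.538% had a difference as low as Emcn in batch 3, 0.614% one as low as Esam, and 2.90% one as low as Cdh5. Each batch holds 1 CTGF and 1 control pool, so these are values of single pairs with no replicate check, and they were looked at after the differences had been seen. Over all probe sets the SD of the differences was 0.18 in batch 3 and 0.16 in batches 1 and 2.

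**Figure D3:**
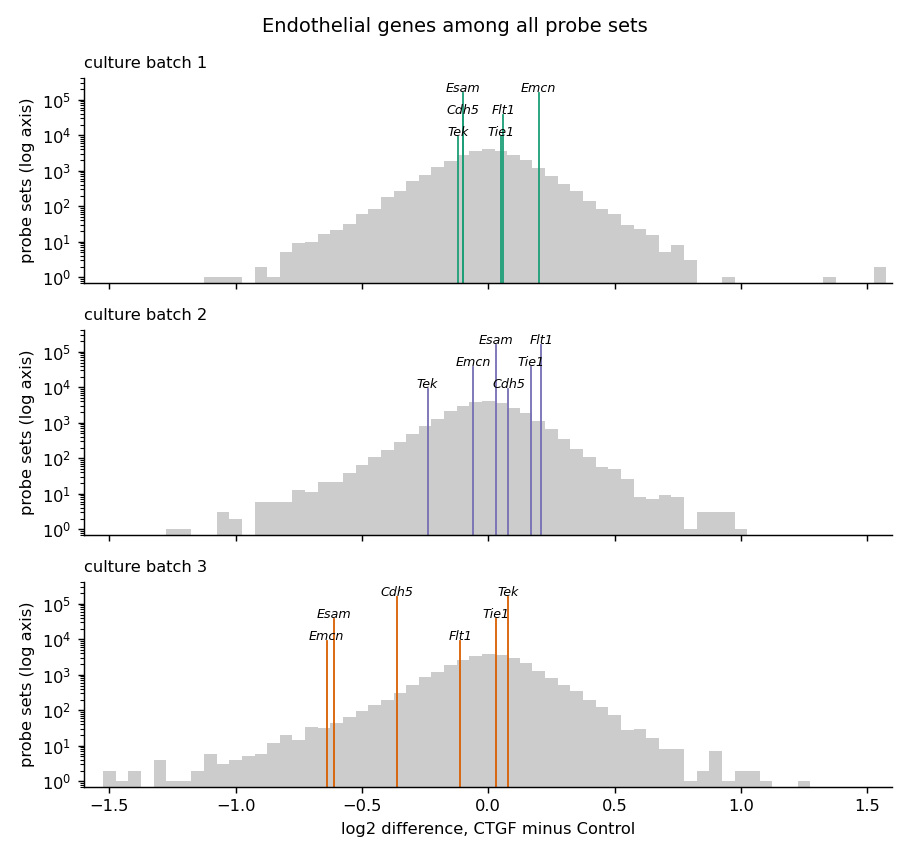
Number of probe sets (vertical axis, log scale) at each log2 difference, CTGF minus control (horizontal axis, bins of 0.05), in the 3 culture batches, with the 6 endothelial genes as coloured lines. In batch 3 Emcn, Esam and Cdh5 stand in the lower tail at -0.64, -0.61 and -0.36, while 7 probe sets outside the plotted range are not shown.

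The ligands of these receptors were measured in the same ovaries. Of 14 vascular growth factors and co-receptors 13 had a probe set, 0 passed an adjusted p of 0.05 in limma, and 2 had a log2 fold change above 0 and 11 below, with a median of -0.05. Angpt1, the activating ligand of Tek, had the smallest unadjusted p of them, 0.0326, with a log2 fold change of -0.22 (limma standard error 0.08, adjusted p = 0.994) and differences of -0.23, -0.06 and -0.37 in the 3 batches. Its log2 signals were 4.30, 4.39 and 4.23 with CTGF against 4.53, 4.45 and 4.60 in control ovaries, all below the 95th percentile of the genes of other organs. Angpt2, which can oppose Angpt1 at Tek, had differences of 0.08, 0.30 and -0.04, at signals that likewise lay below that 95th percentile.

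Vegfa, the main growth factor of endothelial cells, had log2 signals of 7.19, 7.15 and 6.95 with CTGF and 7.08, 7.11 and 7.32 in control ovaries, and differences of 0.11, 0.04 and -0.37. Pgf, placental growth factor, a ligand of Flt1, had differences of 0.50, -0.09 and -0.86, and Nrp1, neuropilin 1, a co-receptor for VEGF-A, differences of 0.15, 0.03 and -0.67. All 3 were thus lowest, relative to control, in batch 3, as Emcn, Esam and Cdh5 were. Vegfb and Vegfc, at 0.08 and 0.13, were above control in that batch. The log2 fold changes were -0.07 for Vegfa, -0.15 for Pgf and -0.16 for Nrp1, with limma standard errors of 0.11, 0.23 and 0.16 (adjusted p = 0.994 for each).

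Other genes of endothelial cells were mostly above control in batch 1 and mostly below it in batch 3. Of 32 listed, 28 had a probe set, and 10 of the 28 lay above the 95th percentile of the genes of other organs. None passed an adjusted p of 0.05 in limma. At an unadjusted p under 0.05 there were 0, against 3.35% of all probe sets, and the median log2 fold change was -0.02. In batch 1, 24 of the 28 were above control, in batch 2 19, and in batch 3 5. The medians were 0.09, 0.05 and -0.18, beside 0.00, -0.01 and 0.00 for all probe sets. Each batch is a single pair of pools, so the genes of a list are not replicates. A ratio under 0.83 was reached by 0, 1 and 10 genes, against 4.89%, 5.11% and 6.04% of all probe sets. Some of these 10 had a mean signal under that percentile. A ratio over 1.2 was reached by 3 genes in batch 1, against 4.32% of all probe sets, and by 0 in batches 2 and 3. Esm1, a proteoglycan secreted by endothelial cells, had the smallest unadjusted p of the 28, 0.141 (limma adjusted p = 0.994), with differences of 0.21, -0.01 and 0.17 and a mean signal under that 95th percentile. Cd93, a surface lectin of endothelial and myeloid cells, had differences of 0.02, 0.04 and -0.78, and Egfl7, a secreted protein of endothelial cells whose mean signal also lay under it, 0.17, -0.29 and -0.45. Procr, the endothelial protein C receptor, had 0.08, 0.14 and 0.09. With Apln and Cldn5, whose mean signals lay under that 95th percentile, it made up the 3 of 28 genes higher in all 3 batches. Of all probe sets 9.41% were so, while 0 of the 28 were lower in all 3, against 10.9%. Mcam and Cd34, chosen after their values were seen, had -0.92 and -0.68 in batch 3, against 0.09 and 0.28 in batch 1. Mcam is also carried by pericytes and Cd34 by stromal and blood progenitor cells.

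Arterial and venous genes had a median log2 fold change of 0.02. Of 11 measured, 0 had an unadjusted p under 0.05, 4 were higher with CTGF in all 3 batches, Jag1, Hey1, Dll4 and Unc5b, against 9.41% of all probe sets, and 0 were lower in all 3, against 10.9%. Jag1, a ligand of Notch receptors also made by other ovarian cells, had differences of 0.11, 0.17 and 0.17 (log2 fold change 0.15, limma standard error 0.06, unadjusted p = 0.0539, adjusted p = 0.994), and was the one of these 4 above the 95th percentile of the genes of other organs. Of 5 lymphatic endothelial genes, Prox1, a transcription factor of lymphatic identity whose mean signal lay below that percentile, had differences of 0.06, 0.11 and 0.37, and Lyve1, a hyaluronan receptor also carried by macrophages, -0.32, -0.23 and 0.06. The median difference in batch 3 was 0.00 for the arterial and venous genes and 0.01 for the lymphatic genes.

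**Figure D4:**
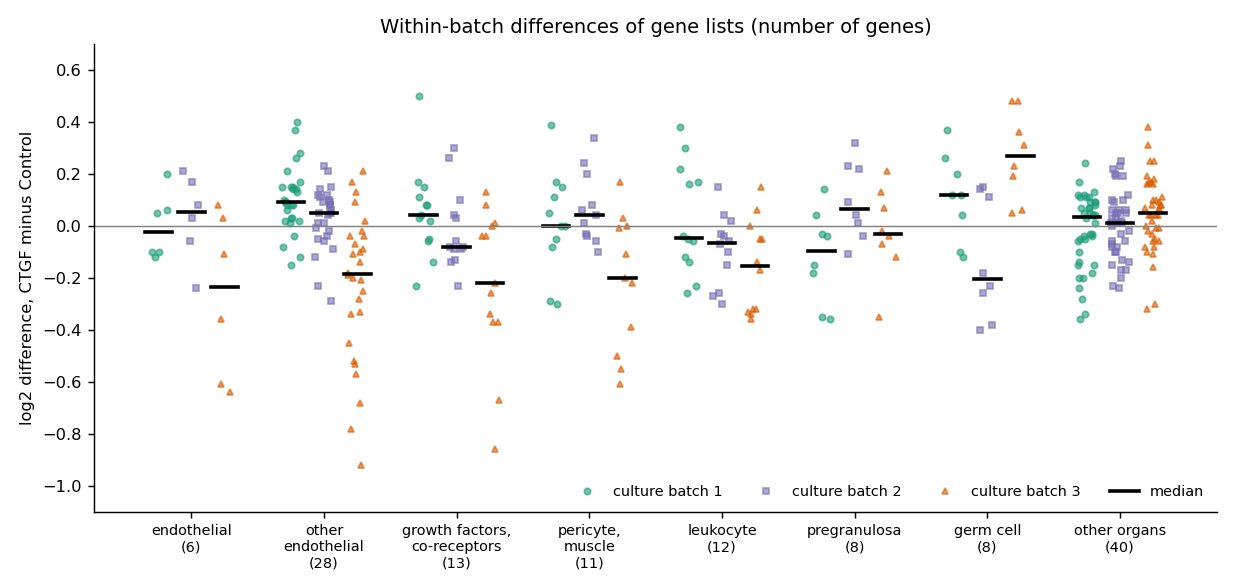
Log2 difference, CTGF minus control (vertical axis), of each measured gene of 8 lists (horizontal axis, number of genes in brackets) for culture batch 1 as circles, batch 2 as squares and batch 3 as triangles, and the median of each as a black bar. In batch 3 the medians of the endothelial, other endothelial, growth factor and pericyte lists are -0.23, -0.18, -0.22 and -0.20, that of the germ cell genes is 0.27 and that of the genes of other organs 0.05.

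Genes of other cell types also differed from control in batch 3. All 8 measured germ cell genes were above control there, with a median difference of 0.27 beside 0.00 for all probe sets. In batch 1 6 of 8 were above, with a median of 0.12, while in batch 2 5 of 8 were below, with a median of -0.20. All 8 had a log2 fold change above 0, with a median of 0.07 beside -0.003 for all probe sets, and 0 had an adjusted p under 0.05 in limma. Kit, the receptor of kit ligand on oocytes, was higher in all 3 batches, by 0.12, 0.15 and 0.31 (unadjusted p = 0.0326, limma adjusted p = 0.994). It was the 1 germ cell gene of 8 to be so, against 9.41% of all probe sets. The summed signal of the 8 was 5905 to 6732 with CTGF and 5614 to 6421 in control ovaries. Of 11 pericyte and smooth muscle genes 8 were below control in batch 3, with a median of -0.20. Des, the muscle filament desmin, was at -0.61 there, and Pdgfrb, a receptor of pericytes and other mesenchymal cells, at -0.55. Both were chosen after their values were seen. In batches 1 and 2 Des was above control, at 0.11 and 0.08, as was Pdgfrb, at 0.17 and 0.34. Myh11 had the smallest unadjusted p of the 11, 0.143 (limma adjusted p = 0.994), with differences of 0.39, 0.04 and 0.03. Its mean signal lay below the 95th percentile of the genes of other organs. The summed signal of the 11 was 1010 to 1193 with CTGF and 1090 to 1289 in control ovaries. The medians of the 8 pregranulosa genes were -0.10, 0.06 and -0.03 in the 3 batches. The part of differences in cell makeup between the pools of batch 3 in the endothelial values was not tested.

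Some of the endothelial genes are shared with blood cells, so markers of these were set beside them. Of 12 leukocyte genes 9 had a log2 fold change below 0, with a median of -0.09, and 4 were lower in all 3 batches, against 10.9% of all probe sets. C1qa, a complement subunit made by macrophages, had the smallest unadjusted p, 0.0451, with differences of -0.23, -0.03 and -0.36 (limma adjusted p = 0.994). The summed signal of the 12 was 1905 to 1945 with CTGF and 1967 to 2011 in control ovaries. Since paired arrays mirror each other, ranges that do not overlap add nothing to the sign of the differences. The summed signal of the 6 endothelial genes was 431 to 475 with CTGF and 472 to 526 in control ovaries. Of 5 platelet genes 0 lay above the 95th percentile of the genes of other organs by their mean. Their log2 fold changes were above 0 in 3 and below 0 in 2, with a median of 0.03, and 4 of 5 were above control in batch 3. Pf4, platelet factor 4, had the smallest unadjusted p of the 5, 0.0471 (limma adjusted p = 0.994), with differences of -0.11, -0.15 and -0.22 at log2 signals from 5.67 to 5.89. The summed signal of the platelet genes was 161 to 166 with CTGF and 166 to 171 in control ovaries. The part of blood cells in the endothelial values was not tested.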

How the data were processed

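RNA of 6 pools of whole cultured ovaries, 3 CTGF and 3 control, was measured on Affymetrix Rat Gene ST arrays. The authors made the deposited log2 values with RMA in Partek, 1 value per probe set, and the methods add a GC-content adjustment. The submitters' processing notes name RMA and Partek. The values have 2 decimals, and 0 value columns were without a sample. Groups and culture batches come from the labels, in which the batch number is the replicate number. The deviations of paired arrays correlated at -0.9988, -0.9988 and -0.9991, which follows from equal batch means in the deposited values. Detection calls and intensities before summarization were not used here, and the number of arrays limits the precision.

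All 27342 probe sets entered 1 fit in R 4.3.3 by lmFit and eBayes of limma 3.58.1, with the culture batch as a term as in the methods (prior degrees of freedom 4.22 and residual ones 2). No filter was set, and p-values were adjusted after Benjamini and Hochberg across the array. The procedure was tested on simulated data, in which the arrays were independent and did not mirror each other as the deposited ones do. The methods' 2-way ANOVA, other normalizations, a filter on signal and fits without each replicate were alternatives. In the main fit, p-values weigh the mean of the within-batch differences of a probe set against their spread. Limma moderates this spread with that over all probe sets.

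By the platform annotation 15097 probe sets had 1 symbol, 323 several and 11922 none. By Entrez number 15067 of the 15097 were found in RefSeq (GRCr8). A list's gene with several probe sets is represented by the one with the highest mean signal. The members, lists and rules were chosen with earlier results of these data known. The rule for named genes takes all members, any vascular growth factor or co-receptor, and up to 4 genes with the smallest limma p of each other list. Some genes were named outside this rule. Mcam, Cd34, Des and Pdgfrb were chosen after their values were seen, and Apln and Cldn5 were named as part of a count.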

Additional observations from a re-analysis of the deposited data

How the results depend on the processing

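The count of 0 endothelial genes at an adjusted p under 0.05 in limma held under each alternative run, as did the count of 0 probe sets over the whole array. With no replicate block, which counts 4 residual degrees of freedom where the deposited values leave 2, 4415 probe sets had an unadjusted p under 0.05 against 915 with the paired fit, and 1 of the 6 endothelial genes did, Tie1 at 0.0498 (limma adjusted p = 0.308), against 0. With only probe sets whose mean log2 signal was above 6, the count was 355 of 13074 tested, against 915 of 27342. Of the 6 genes Tek and Emcn alone were left. The median of the endothelial genes was -0.12 to 0.03 without 1 replicate at a time, lowest without replicate 2 and above 0 without replicate 3. The log2 fold change of Emcn was -0.35 to 0.07 and that of Flt1 -0.025 to 0.14 in the same fits, so that Emcn turned direction without replicate 3 and Flt1 without replicate 2. It was -0.355 to -0.035 for Esam and -0.23 to -0.01 for Cdh5, both nearest 0 without replicate 3, and -0.18 to -0.02 for Tek and 0.04 to 0.11 for Tie1, both nearest 0 without replicate 2. The count of probe sets at an unadjusted p under 0.05 was 645 to 1244. With array medians centred, quantile normalization, trend and robust options, or the methods' 2-way ANOVA, the 6 genes kept their directions. In that ANOVA, which has no moderation, the unadjusted p was 0.571 for Emcn and 0.366 for Esam, against 0.319 and 0.123 in limma. It was also higher for Tek, Cdh5 and Flt1, and lower for Tie1, at 0.197 against 0.258 in limma.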
